A study of Rattus norvegicus with 6 samples.

Results

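The genes described here are 10 inhibitors of mitogen-activated protein (MAP) kinase signalling: the dual-specificity phosphatases Dusp4, Dusp5, Dusp6, Dusp1 and Dusp10, the Sprouty genes Spry1, Spry2 and Spry4, and the Spred genes Spred1 and Spred2. They were taken by gene symbol from the platform annotation, which gave 1 probe set for each, and all 10 were found among the 18166 named genes. Each probe set combines several short array oligonucleotides into 1 value. All 10 passed the filter on signal, as did 11540 genes in all: the mean log2 intensity of a gene had to reach the overall median of the table, 6.74, or an intensity of 107.2.

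RNA came from stem cells that had been obtained from skeletal muscle of male rats by plating and were kept in flasks or 6-well plates. It was read on Affymetrix Rat Gene 2.0 ST arrays. The series holds 6 arrays, 1 per culture condition, titled cholesterol, fatty acid, OZ serum, LZ serum, high glucose control and low glucose control. Cholesterol was given at 100 mg/dl with cyclodextrin as carrier, and the fatty acid was sodium palmitate, for which the labels give no concentration. They do not say how the glucose media or the sera were used, whether a control held cyclodextrin, or which control belongs to which lipid, so each lipid array was set against both controls. The passage, the number of rats and the time of exposure are likewise not given in the labels. With 1 array per condition there was no replicate, no error and no test, and each difference below describes a pair of arrays. The number of arrays limits the precision.

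MAP kinases are switched on by phosphorylation of a threonine and a tyrosine, and the dual-specificity phosphatases remove both phosphates. Dusp5, a nuclear enzyme, and Dusp6, a cytoplasmic enzyme, act on the growth factor-responsive kinase ERK, and their own genes are transcribed when ERK is active, so that they form a negative feedback. Sprouty and Spred proteins act further upstream, between receptor tyrosine kinases and the kinase Raf, and several of their genes are also induced by the pathway. In skeletal muscle, Spry1 is known in mouse for its part in the return of satellite cells, the resident muscle stem cells, to quiescence.

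The labelled cell type was checked first. Mesenchymal markers were clearly present: all 6 annotated of 7 listed passed the filter, with log2 intensities for Thy1 from 13.17 to 13.51. Of 6 muscle progenitor markers, Myf5, Myod1 and Myog had means below the filter, Pax7 lay close to it (6.90 to 7.26) and Ncam1 was bright (11.37 to 12.43). None of 3 annotated endothelial markers and 1 of 5 annotated epithelial markers passed. In the Schwann cell list both annotated markers passed, of which S100b was bright (10.15 to 10.65) and Sox10 near the filter, and in the adipocyte list 2 of 5 did. Of 7 macrophage and leukocyte markers 3 passed, Cd14 (8.41 to 10.13), Cd68 and Tyrobp, while Ptprc, the defining leukocyte marker, was dimmer than the overall median on every array. In such bulk RNA, fewer cells of a type and less RNA per cell cannot be told apart. Median intensity per array ran from 104.6 to 109.2.

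Promoters of 4 phosphatase genes are shown because 3 of them (Dusp5, Dusp6 and Dusp10) were the genes of the set that were high with lipid, and Dusp1 was the phosphatase gene that barely varied. Each runs from 250 bases before to 50 bases after the start of the gene, 5′ to 3′ on the gene's own strand, from RefSeq on build GRCr8. Of the 10 genes, 9 matched this table, all but Dusp4, and Spry2 has a pair of start sites there. Capitals mark matches to the searched motifs. These were the AP-1 site TGANTCA, the full cyclic AMP response element TGACGTCA, the ETS site CCGGAA and the CArG box, the core of the serum response element, each on both strands.
Dusp5, chr1:262543524-262543823, plus strand: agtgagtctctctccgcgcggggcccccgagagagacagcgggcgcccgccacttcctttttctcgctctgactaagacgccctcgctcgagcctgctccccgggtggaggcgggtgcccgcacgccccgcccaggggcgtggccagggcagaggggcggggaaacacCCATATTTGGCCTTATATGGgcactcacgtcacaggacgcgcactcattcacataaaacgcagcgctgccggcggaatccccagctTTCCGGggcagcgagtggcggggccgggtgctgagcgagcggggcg
Dusp6, chr7:35979354-35979653, plus strand: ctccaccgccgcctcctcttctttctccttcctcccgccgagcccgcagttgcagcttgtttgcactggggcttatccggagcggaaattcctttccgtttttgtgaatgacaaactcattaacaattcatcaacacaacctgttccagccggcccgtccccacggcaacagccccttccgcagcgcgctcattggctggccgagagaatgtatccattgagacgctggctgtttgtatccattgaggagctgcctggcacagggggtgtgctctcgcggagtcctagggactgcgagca
Dusp10, chr13:98145643-98145942, plus strand: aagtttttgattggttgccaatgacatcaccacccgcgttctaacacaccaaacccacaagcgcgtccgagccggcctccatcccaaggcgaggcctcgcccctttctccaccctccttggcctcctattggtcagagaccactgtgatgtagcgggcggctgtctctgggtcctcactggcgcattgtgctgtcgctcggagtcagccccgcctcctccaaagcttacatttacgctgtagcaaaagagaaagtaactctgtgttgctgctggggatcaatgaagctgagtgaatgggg
Dusp1, chr10:17184603-17184902, plus strand: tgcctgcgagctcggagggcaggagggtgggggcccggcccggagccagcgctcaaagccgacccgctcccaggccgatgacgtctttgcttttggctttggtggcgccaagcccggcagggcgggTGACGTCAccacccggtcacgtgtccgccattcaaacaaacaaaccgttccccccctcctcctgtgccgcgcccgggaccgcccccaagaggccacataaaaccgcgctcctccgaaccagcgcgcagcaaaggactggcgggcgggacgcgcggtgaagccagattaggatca

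The Dusp5 window held a tandem pair of CArG boxes, which begin 82 and 72 bases before the start and touch each other, and an ETS site just past the start. Of 33469 promoter windows in the table, 1.64% held a CArG box and 7 held at least 2 of them. The Dusp1 window held a full cyclic AMP response element 124 bases before the start, as did 1.83% of all windows. The Dusp6 and Dusp10 windows held none of the searched letters. An ETS site also lay in the windows of Spry2 and Spry4, as in 15.0% of all windows, and no AP-1 site lay in any window of these 9 genes, against 7.33% of all windows. A match is a run of letters and no evidence of binding.

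Among the ERK phosphatases, Dusp5 had the widest range. Its intensity was 798.6 with cholesterol and 1602 with fatty acid, against 304.7 with OZ serum, 346.6 with LZ serum, 365.4 in the high glucose control and 385.8 in the low glucose control. The lipid arrays stood above all others, fatty acid furthest. The cholesterol array was 2.19-fold above the high glucose and 2.07-fold above the low glucose control, log2 differences of 1.13 and 1.05. The fatty acid array was 4.38-fold and 4.15-fold above them, log2 differences of 2.13 and 2.05. The other arrays lay within 0.34 of each other on the log2 scale. The cholesterol difference is close to the 2-fold threshold used for counting: it was 0.99 after each array was centred on its median, and also 0.99 with an offset of 32 before log2.

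Dusp6 had intensities of 754.1 with cholesterol and 1540 with fatty acid, against 327.8 with OZ serum, 350.2 with LZ serum, 315.2 in the high glucose control and 543.7 in the low glucose control. The fatty acid array was again highest and cholesterol second, but here the controls differed from each other. The high glucose control was 1.72-fold below the low glucose control, a log2 difference of -0.79. Over all genes past the filter, 95% of the absolute log2 differences between the controls were at or below 0.48, with a median of 0.14. The fatty acid array was 4.89-fold above the high glucose control and 2.83-fold above the low glucose control. The cholesterol array was 2.39-fold above the high glucose control but only 1.39-fold above the low glucose control, so that whether Dusp6 passed 2-fold with cholesterol depended on the control. The OZ and LZ serum arrays lay near the high glucose control, 0.06 and 0.15 above it on the log2 scale.

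Dusp4, another phosphatase that acts on ERK in the nucleus, stayed near the filter, with log2 intensities of 7.40 with cholesterol and 7.08 with fatty acid, against 7.03, 7.01, 7.09 and 7.01 with OZ serum, with LZ serum and in the high and low glucose controls. Cholesterol was highest, by 0.31 over the nearer control, and the fatty acid array lay between the controls. It did not show the order of Dusp5 and Dusp6.

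**Figure D1:**
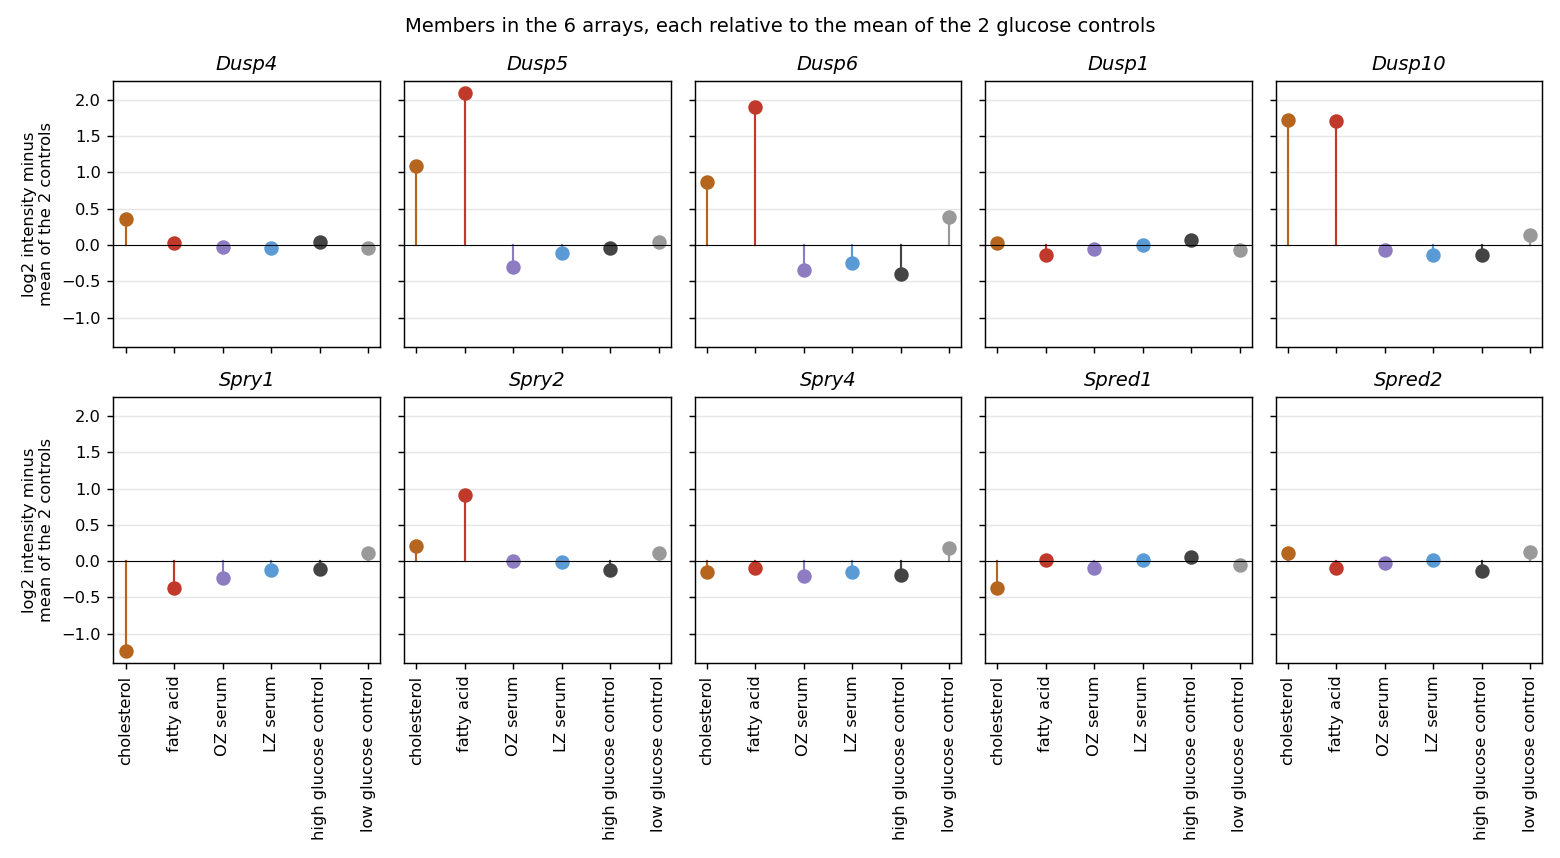
Log2 intensity of each of the 10 genes on each of the 6 arrays (x axis), as the difference from the mean of the high and low glucose controls (y axis, log2), 1 point per array and no error bars because there are no replicates. Dusp5 and Dusp6 are highest with fatty acid and second with cholesterol, Dusp10 is about equally high with both, Spry1 is lowest with cholesterol, and Spry2 is highest with fatty acid.

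The phosphatases that prefer the stress kinases JNK and p38 differed from each other. Dusp10 had intensities of 1273 with cholesterol and 1259 with fatty acid, against 366.4 with OZ serum, 350.0 with LZ serum, 348.8 in the high glucose control and 422.2 in the low glucose control. Its lipid arrays were nearly equal, with a log2 difference of cholesterol minus fatty acid of 0.02, and both stood far above the other arrays. Cholesterol was at least 3.01-fold and fatty acid at least 2.98-fold above either control. In this it differed from Dusp5 and Dusp6, for which cholesterol minus fatty acid was -1.004 and -1.03.

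Dusp1, an immediate early gene whose product is a nuclear phosphatase for p38, JNK and ERK, was bright and had the smallest range of the 10 genes. Its intensity was 5266 with cholesterol and 4711 with fatty acid, against 4993 with OZ serum, 5165 with LZ serum, 5420 in the high glucose control and 4943 in the low glucose control. All 6 arrays lay within 0.20 on the log2 scale, where the median range over all genes past the filter was 0.41. The fatty acid array was the lowest, by 0.07 below the nearer control, and cholesterol lay between the controls.

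The Sprouty genes went in different directions. Spry1 had intensities of 951.3 with cholesterol and 1734 with fatty acid, against 1905 with OZ serum, 2065 with LZ serum, 2076 in the high glucose control and 2414 in the low glucose control. The cholesterol array was below every other array, 2.18-fold below the high glucose and 2.54-fold below the low glucose control. Fatty acid was also below both controls, by 0.26 and 0.48 on the log2 scale. Set against the serum arrays as well, cholesterol was still at least 2-fold lower, although by little (log2 difference -1.002 from OZ serum, the nearest of these 4).

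Spry2 had intensities of 543.2 with cholesterol and 884.7 with fatty acid, against 470.4 with OZ serum, 466.8 with LZ serum, 431.5 in the high glucose control and 508.4 in the low glucose control. The fatty acid array stood above the rest, 2.05-fold above the high glucose control and 1.74-fold above the low glucose control, and so did not reach 2-fold against both. Cholesterol was above both controls by at most 0.33 on the log2 scale. Spry4 had intensities of 663.8 with cholesterol and 694.2 with fatty acid, against 642.5 with OZ serum, 667.8 with LZ serum, 648.2 in the high glucose control and 841.4 in the low glucose control. Its highest value was that of the low glucose control, and both lipid arrays lay between the controls.

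The Spred genes varied little. Spred1 had intensities of 1120 with cholesterol and 1459 with fatty acid, against 1347 with OZ serum, 1458 with LZ serum, 1498 in the high glucose control and 1392 in the low glucose control. Cholesterol was lowest, by 0.31 below the nearer control, and fatty acid lay between the controls. Spred2 had intensities of 503.1 with cholesterol and 434.2 with fatty acid, against 457.5 with OZ serum, 470.0 with LZ serum, 423.4 in the high glucose control and 507.4 in the low glucose control. All 4 other arrays lay between the controls.

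Counted at 2-fold against both controls, 2 of the 10 genes were higher with cholesterol (Dusp5 and Dusp10), where 0.381% of all genes past the filter were, and 1 was lower (Spry1), where 0.806% were. With fatty acid, 3 were higher (Dusp5, Dusp6 and Dusp10), where 0.641% of all genes were, and 0 were lower, where 2.01% were. The 10 genes were chosen with earlier results of these arrays known, so these counts are descriptions and carry no test. Most of the set did not follow: the median log2 difference of the 10 genes was 0.28 and 0.09 with cholesterol, against the high and low glucose controls, and 0.07 and 0.07 with fatty acid, beside 0.01 and 0.00 over all genes with cholesterol, and 0.01 and -0.00 over all genes with fatty acid. The lipid comparisons share both control arrays, so their likeness is not independent.

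**Figure D2:**
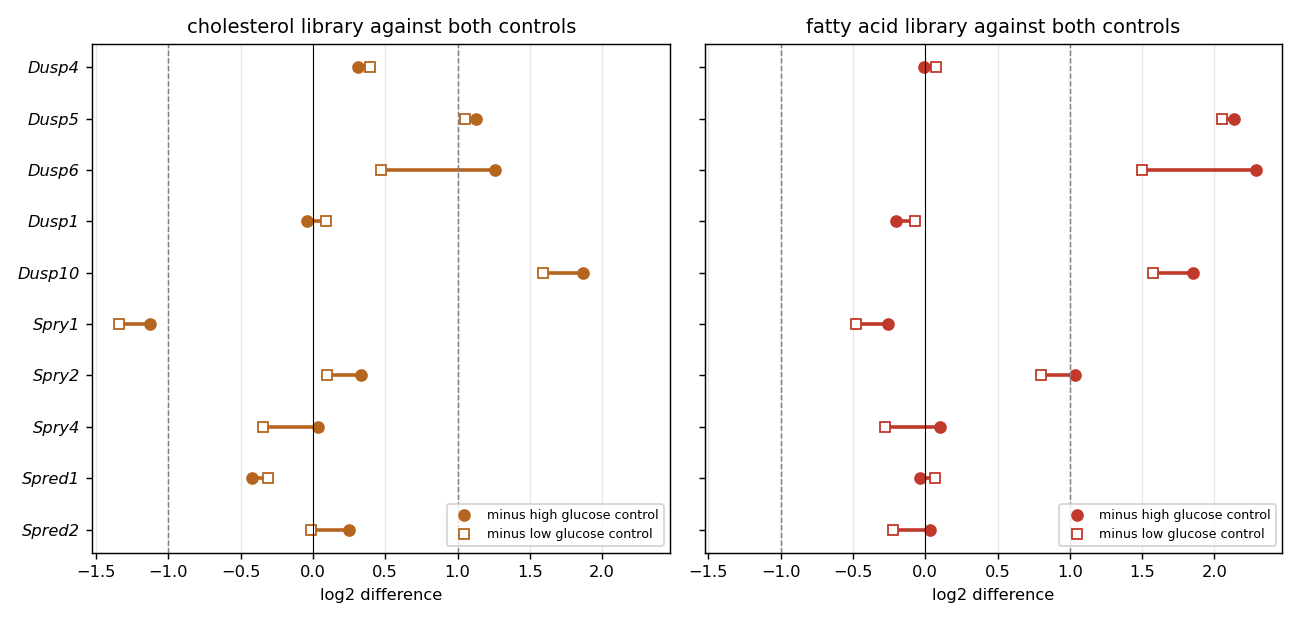
Log2 difference of the cholesterol array (left) and the fatty acid array (right) from the high glucose control (filled circles) and from the low glucose control (open squares) for each gene (rows), with dashed lines at 2-fold. The distance between the symbols is the difference between the controls, which is widest for Dusp6 (0.79).

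Set directly against fatty acid, cholesterol was at least 2-fold lower in 2 of the 10 genes, Dusp5 (2.01-fold) and Dusp6 (2.04-fold), where 0.901% of all genes were, and at least 2-fold higher in 0, where 1.92% were. Both calls lie on the threshold: with an offset of 32 before log2, Dusp5 was at -0.98 and Dusp6 at -0.9997. Spry1 (-0.87) and Spry2 (-0.70) were also lower with cholesterol than with fatty acid, below 2-fold. Dusp4 (0.32) and Spred2 (0.21) were higher with cholesterol. Cholesterol and palmitate were set side by side as labelled, and since no palmitate dose or time is given their doses cannot be matched.

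In the remaining comparisons none of the 10 genes reached 2-fold, as was so for nearly all genes. OZ serum against LZ serum gave 0 of 10 genes at least 2-fold higher, where 0% of all genes were, and 0 lower, where 0.026% were. The largest of these differences was Dusp5, with a log2 difference of -0.19. The high glucose against the low glucose control gave 0 of 10 higher and 0 lower, where 0.251% and 0.104% of all genes were, with Dusp6 (-0.79) and Spry4 (-0.38) furthest apart and both lower in the high glucose control. Both serum arrays against both controls gave 0 and 0, with 0% of all genes in either direction.

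Over all 6 arrays, 5 of the 10 genes had a range of at least 2-fold (Dusp5, Dusp6, Dusp10, Spry1 and Spry2), against 7.49% of all genes past the filter. Over the other 4 arrays, without cholesterol and fatty acid, the median range of the 10 genes was 0.27, beside 0.23 for all genes. As a description over 6 arrays of which the lipid pair carries most of the spread, Dusp5 and Dusp6 had a Pearson correlation of 0.97, Dusp6 and Spry2 of 0.95, and Dusp5 and Dusp10 of 0.93. Spry1 went the other way from Dusp4 (-0.96) and alongside Spred1 (0.86).

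Genes of the same pathway were read from lists of 96 further genes, of which 89 were annotated and 77 passed the filter. With cholesterol, 1 of the 77 was at least 2-fold higher than both controls, where 0.381% of all genes were, and 1 was lower, where 0.806% were. With fatty acid, 6 were higher and 4 lower, where 0.641% and 2.01% of all genes were. Of 5 other MAP kinase phosphatase genes, none reached 2-fold with either lipid. The furthest was Dusp16, which encodes a phosphatase for JNK and p38, at 0.58 with cholesterol and 0.67 with fatty acid. Of 10 other feedback inhibitors of receptor signalling none reached 2-fold against both controls. Rasa1, a GTPase-activating protein that turns Ras off, was furthest from the nearer control (0.66 with cholesterol and 0.96 with fatty acid). With fatty acid Rasa1 passed 2-fold after quantile normalization (1.02), with the mean of the controls (1.02) and against the low glucose control alone (1.08).

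Immediate early factors are transcribed within minutes of kinase activation. Of 10 immediate early factors past the filter, 9 were above both controls with cholesterol, where 36.3% of all genes past the filter were. Of these, 0 reached 2-fold, where 0.381% of all genes did. With fatty acid 9 were above both controls, where 40.4% of all genes were, and 4 of them reached 2-fold, where 0.641% did. Some of the differences were small, such as Srf (0.04) and Egr3 (0.08) with cholesterol and Egr3 (0.07) with fatty acid. Egr3, Fos and Fosb lay near the filter. Jun, a subunit of AP-1, had a log2 intensity of 10.80 with cholesterol and 11.03 with fatty acid, against 9.60 in the high glucose control and 9.80 in the low glucose control. Fosl1, its partner in AP-1, was at 10.40 and 11.11 with cholesterol and fatty acid, against 8.78 and 9.61 in the high and low glucose controls. Egr2, a zinc finger factor, was 1.11 above the nearer control with fatty acid, and Egr1 (1.01), named after its value was seen, completed the 4. Jun was under 2-fold with fatty acid (0.79) when its probe sets were averaged, and Egr1 (0.96) when each array was centred on its median. With cholesterol, Jun lay at the threshold, at 0.99 and, after quantile normalization, 1.01.

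Other genes commonly used to read ERK activity did not move in 1 direction. Of 9 such genes past the filter, 1 was at least 2-fold higher with fatty acid, where 0.641% of all genes were, the ephrin receptor gene Epha2 (1.34). The 2 that were lower were Epha4 (-1.38) and the ETS factor Etv1 (-1.24), where 2.01% of all genes were. Etv1 was at -0.88 when the serum arrays were asked to agree as well. With cholesterol 0 were higher, where 0.381% of all genes were, and Epha4 was lower (-1.15), where 0.806% were. Epha4 had log2 intensities of 6.57 and 6.34 with cholesterol and fatty acid, dimmer than the overall median, and with an offset of 32 before log2 its cholesterol difference was -0.93. Etv5, an ETS factor that is, like Spry4, a usual transcript of FGF and ERK signalling, differed from the nearer control by a log2 difference of -0.07 with cholesterol and -0.13 with fatty acid.

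**Figure D3:**
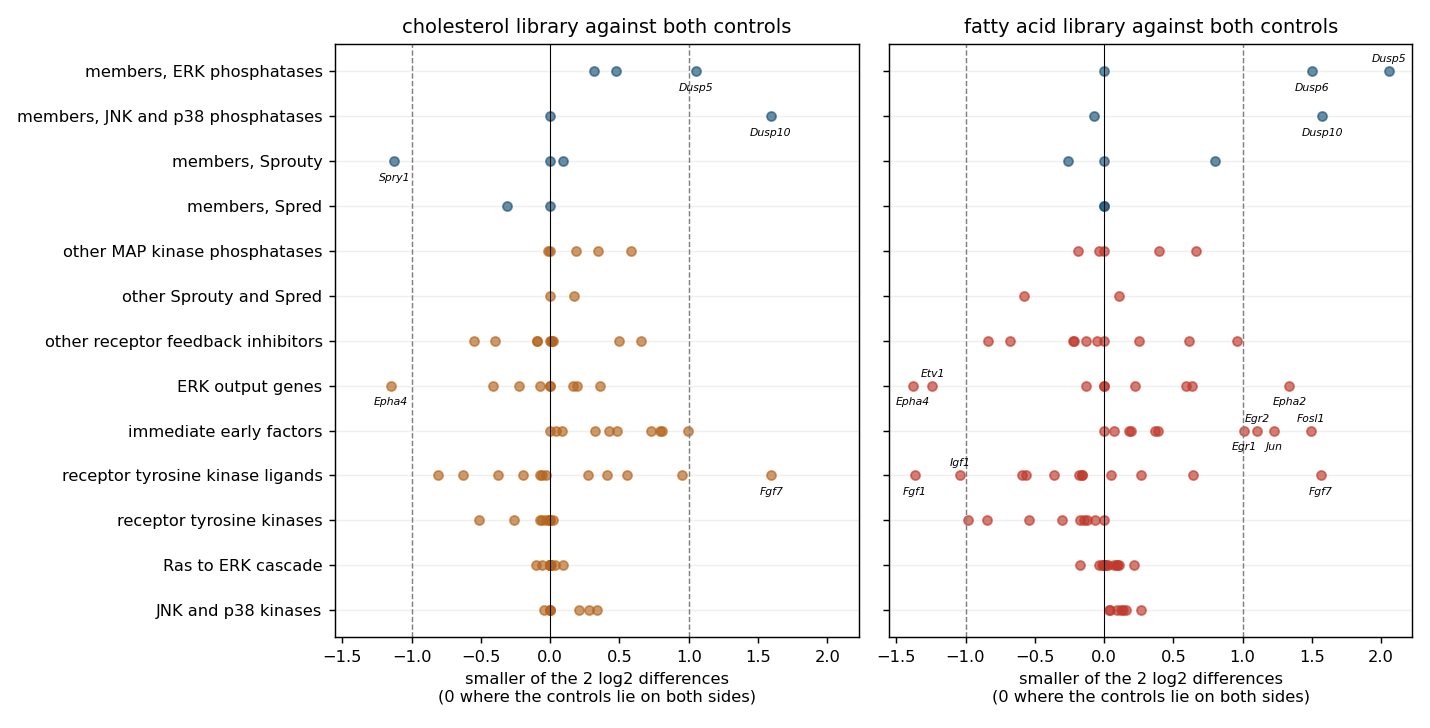
Each point is a gene past the signal filter, placed by the smaller of its log2 differences from both controls (x axis, 0 where the controls lie on either side) for cholesterol (left) and fatty acid (right), in rows by gene list, with the 10 genes described here in blue and the genes at 2-fold (dashed lines) named. The 4 immediate early factors at 2-fold with fatty acid lie right of the line, while the points of the Ras to ERK cascade lie close to 0.

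Upstream of the feedback genes, Fgf7, a growth factor that signals through an FGF receptor isoform found mainly on epithelial cells, was high with both lipids, at log2 9.35 with cholesterol and 9.32 with fatty acid, against 7.76 in the high glucose control and 7.60 in the low glucose control. It was the 1 ligand of 12 past the filter that was at least 2-fold higher with either lipid. Of all genes past the filter, 0.381% were with cholesterol and 0.641% with fatty acid. Fgf10 was just under 2-fold with cholesterol (0.95) and at 0.05 with fatty acid. With fatty acid, 2 ligands were at least 2-fold lower, where 2.01% of all genes were. These were Fgf1 (-1.36), a broad FGF receptor ligand, and Igf1 (-1.04), the insulin-like growth factor. Igf1 was at -0.93 with an offset of 32 before log2. Of 9 receptor tyrosine kinase genes, 8 were below both controls with fatty acid, where 39.7% of all genes past the filter were. None reached 2-fold, with Fgfr2 furthest (-0.98). Fgfr2 passed 2-fold after centring on the medians (-1.01), with the mean of the controls (-1.14) and against the low glucose control alone (-1.30). With cholesterol 6 were below, where 33.6% of all genes were, and Egfr was furthest below the nearer control (-0.51).

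The kinases themselves changed little in transcript level. Of 13 genes between receptor and ERK that were annotated and passed the filter, none reached 2-fold with either lipid. Among those above or below both controls, the furthest from the nearer control was the adaptor gene Grb2 with cholesterol (-0.10). With fatty acid it was the adaptor gene Frs2 (0.22). Against a single control some differences were larger. Map2k2, for example, was at log2 10.22 with cholesterol, against 9.85 and 10.22 in the high and low glucose controls. Of 12 listed JNK and p38 pathway kinases, 7 passed the filter. All 7 were above both controls with fatty acid, where 40.4% of all genes were, but most by little. The furthest above the nearer control was Map2k3 (0.27), which encodes an activator of p38. Besides it only Mapk8 (0.16) exceeded 0.14, the median absolute log2 difference between the controls over all genes past the filter. With cholesterol 3 were above, where 36.3% of all genes were, and Map2k7, an activator of JNK, was furthest above the nearer control (0.34). Transcript levels do not measure phosphorylation, and kinase activity was not measured on these arrays.

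For each gene of the set at least 2-fold from both controls with a lipid, the 4 genes with the most similar pattern were taken by Pearson correlation over the 6 arrays, among 863 other genes with a range of at least 2-fold. For Dusp5 they were Cst6, a cystatin-type protease inhibitor (0.999), Ugdh, UDP-glucose dehydrogenase (0.995), the chemokine Cxcl1 (0.995) and the cytokine Tslp (0.993). For Dusp6 they were Soat1, which esterifies cholesterol (0.997), the sulfiredoxin Srxn1 (0.99), Rasgrp3, an exchange factor that loads Ras proteins with GTP (0.988), and the receptor Il17ra (0.987). Rasgrp3 had log2 intensities of 11.76 and 12.83 with cholesterol and fatty acid, against 10.13 and 10.94 in the high and low glucose controls. Like Dusp6 it was lower in the high than in the low glucose control, a likeness that the choice by correlation favours.

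For Dusp10 the most similar were Slfn2 (0.992), Jun (0.99), Gsap (0.99) and Usp18 (0.988), which encodes a protease that removes the ubiquitin-like protein ISG15. For Spry1 they were Idi1 (0.988), Trib3 (0.986), Prss35 (0.984) and Cyp51 (0.982). Idi1 and Cyp51 are enzymes of sterol synthesis, and both were lowest with cholesterol, as Spry1 was: Cyp51 was at log2 8.33 with cholesterol and 9.74 with fatty acid, against 10.70 and 10.72 in the high and low glucose controls. Each correlation rests on 6 arrays, of which 1 or both lipid arrays stand far from the rest. The genes were picked for this likeness, so sharing the lowest array with Spry1 follows largely from the choice.

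**Figure D4:**
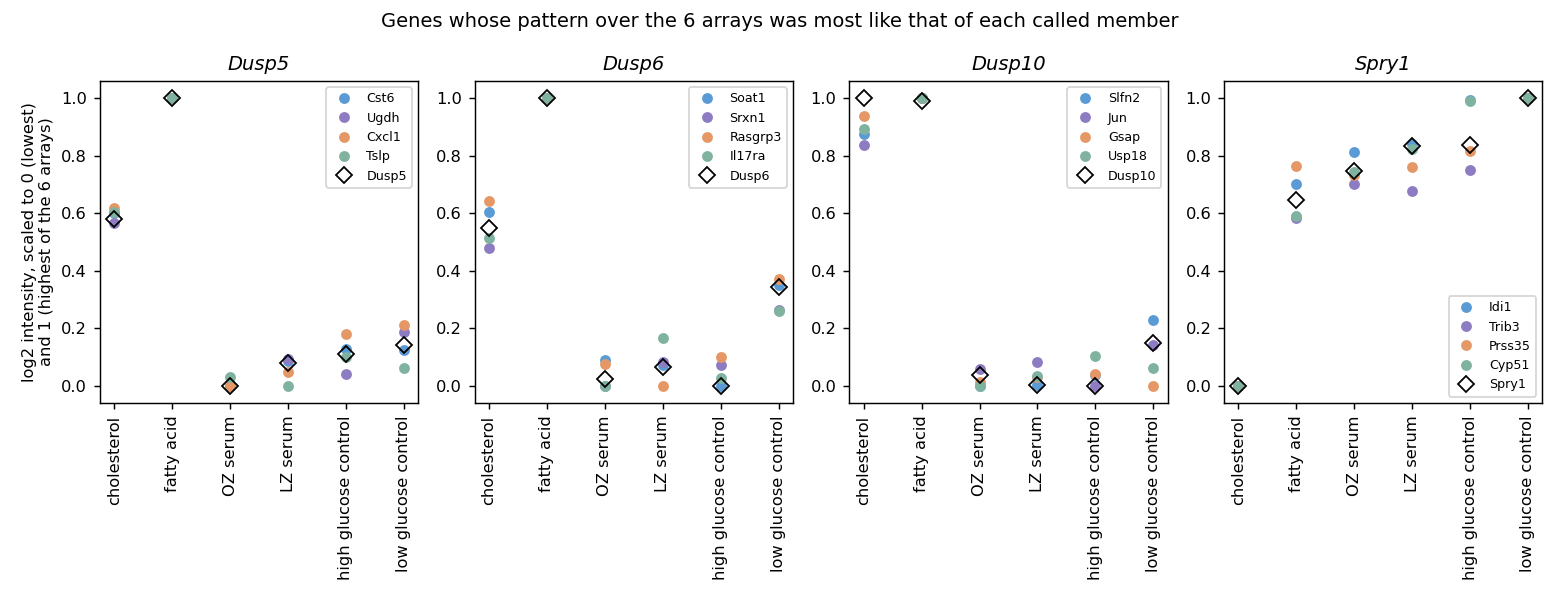
Log2 intensity of Dusp5, Dusp6, Dusp10 and Spry1 (open diamonds) and of the 4 genes with the most similar pattern to each (coloured points) on the 6 arrays (x axis), scaled per gene to 0 at its lowest and 1 at its highest array (y axis). Cholesterol lies between the fatty acid array and the rest for Dusp5 and Dusp6, beside fatty acid for Dusp10, and lowest for Spry1.

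Marker sums of some cell types also differed between the arrays. That of macrophages and leukocytes was above both controls with cholesterol and below both with fatty acid. Of its 3 markers past the filter, only Cd14 showed this pattern. The summed intensity of 7 macrophage and leukocyte markers was 1790 with cholesterol and 806 with fatty acid, against 1096 and 1217 with OZ and LZ serum and 1199 and 941 in the high and low glucose controls. The largest share of this sum was Cd14, a co-receptor for bacterial lipopolysaccharide, with intensities of 1121 with cholesterol and 341 with fatty acid, against 785 in the high glucose control and 517 in the low glucose control. Cd68, a lysosomal protein, had 331 with cholesterol and 148 with fatty acid, against 112 in the high glucose control and 109 in the low glucose control. Tyrobp had 134 and 131 with cholesterol and fatty acid, against 115 and 125 in the high and low glucose controls. Both were thus above both controls with either lipid. Ptprc, Aif1, Itgam and Csf1r were dimmer than the overall median on each array. The summed intensity of 6 mesenchymal markers was 42180 with cholesterol and 35481 with fatty acid, and 45728 to 48175 on the other 4 arrays. The sum of 6 muscle progenitor markers, which is mostly Ncam1, was 5050 with cholesterol and 3195 with fatty acid, and 5397 to 6023 on the others. With fatty acid only Ncam1 was below both controls (2638, against 4918 and 5519 with high and low glucose). Pax7 (153), Des (132) and Myog (120), all dim, were above both controls, and Myf5 and Myod1 lay between them. The part of these shifts in the differences of the phosphatase and Sprouty genes was not tested.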

How the data were processed

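The deposited table holds a linear intensity for each of 36685 probe sets on each array. How the authors summarised, corrected and scaled these values is not stated in the labels or the table. The distributions of the 6 arrays nearly coincided, so no further scaling was applied, and log2 was taken with no offset. Gene names came from the platform's annotation, for probe sets with 1 symbol. A gene with several took the one with the highest mean. The value of a comparison is the smallest log2 difference over all pairs of arrays if all share a sign, and 0 otherwise, counted from 2-fold. With 1 array per group no test was made. The script that counts was checked on simulated data with known changes. The members, lists, thresholds and naming rules (the 10 genes; in each list, for each lipid, up to 3 genes past 2-fold or else the furthest; the 4 nearest patterns) were chosen with earlier results of these data known. Genes outside these rules were named after their values were seen, such as Egr1, Etv5 and the cell markers. Alternatives concerned scaling, signal filter, probe sets, threshold, offset and reference array. Tools were R 4.3.3 with limma 3.58.1 (cyclic loess) and Python 3.11.15 with numpy 2.4.6 and pandas 2.3.3.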

Additional observations from a re-analysis of the deposited data

How the results depend on the processing

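No paired analysis was possible because each group holds 1 array. Of 122 recomputed counts of the 10 genes, some of them at the 1.5-fold threshold, 117 were within 1.5 times the reported one or, where that was 0, stayed at 0. Many reported counts were 0 in comparisons with few or no genes of the series called, which left little room for change. With cholesterol against both controls, 1 gene (Dusp10) in place of 2 was higher both when arrays were centred on their medians and with an offset of 32 before log2. For cholesterol against fatty acid, 4 genes in place of 2 were lower at a 1.5-fold threshold and 0 with the offset. For the high against the low glucose control, 1 gene (Dusp6) in place of 0 was lower at 1.5-fold. Of 610 recomputed values of the 10 genes, 600 kept their side of the threshold and 0 of the called ones changed sign. Many of these were fixed in advance. A change of signal filter could not alter a value, nor could averaging probe sets, since each of the 10 genes has 1. A lower threshold or a single control could not weaken a called value, which is the smaller of the differences. With the high glucose control alone, Dusp6 was at 1.26 with cholesterol and Spry2 at 1.04 with fatty acid, past 2-fold. For the other genes named by the rules, and Egr1 and Etv5, 821 recomputed values kept their side of the threshold, 6 lost it and 37 gained it. Many of the gains came from the lower threshold of 1.5-fold, and 0 called values changed sign. Further genes in the text, such as Fgf10, Map2k2 and the cell markers, were not recomputed. After centring on the medians, the largest median log2 difference over all genes past the filter was 0.101 in size, in the serum comparison. Before centring, the largest there was -0.047 (OZ serum minus low glucose control). The stricter filter removed Dusp4. Counts were unchanged when agreement with both serum arrays was also asked, an alternative chosen after seeing the data.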
